A study of Mus musculus with 22 samples.

Results

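Excitatory transmission in the cortex runs on glutamate. It acts on ion-channel receptors of the AMPA, kainate and NMDA classes and on slower metabotropic receptors that signal through G proteins. Under the membrane, scaffold proteins of the Dlg (PSD-95), Dlgap, Shank and Homer families stack into the postsynaptic density, where the kinase CaMKII adjusts receptor number and strength. The 38 genes described here encode 22 receptor subunits, 14 scaffold proteins and 2 CaMKII subunits. They were chosen by symbol, and each had 1 row among the 15705 genes scored at 6 months and the 15192 genes scored at 12 months. Most of these genes span very long introns, which have to be removed after the U1 small nuclear ribonucleoprotein (snRNP) and its partners have recognised the splice sites.

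RNA came from mouse cortex in every group, after poly(A) selection. At 6 months there were 3 libraries each from N40K mice (an N-terminal fragment of the U1 snRNP protein U1-70K as a transgene), dTg mice (N40K together with 5xFAD), 5xFAD mice (amyloid transgenes) and wild-type (WT) mice, all littermates from crosses of N40K-Tg +/- and FAD +/- parents. At 12 months there were 6 libraries from Tau P301S mice and 4 from WT littermates, from Tau P301S +/- parents mated with WT. N40K and dTg mice are called carriers below, and 5xFAD and WT mice non-carriers. 5xFAD mice express mutant human APP and presenilin genes from a neuronal Thy1 promoter; the sources used here do not give the promoters of the N40K and tau transgenes, the sexes, or whether animals were pooled. The question named in the title is how a U1 snRNP splicing defect linked to Alzheimer disease acts on neurons.

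The measurement is the Sd score, a ratio given for each gene in each library and deposited with 3 decimals. It is read here as splicing deficiency, with a higher score for more unspliced signal. It gives no expression level, so the cortex label could not be checked against marker levels, and a changed score says nothing of transcript amount. Of 24 marker genes of cortical cell types, 19 had a score at 6 months and 22 at 12 months. Read depth is unknown, so no counting interval is given. The median score of all genes was 0.036 in N40K replicate 1 and 0.035 in dTg replicate 2, against 0.029 to 0.033 in the other 10 libraries at 6 months. At 12 months it was 0.014 to 0.016 in Tau P301S libraries, against 0.013 in WT replicates 1 and 2 and 0.017 in WT replicates 3 and 4. Tau P301S replicate 2 stood apart among the members: it had the highest score of all 10 libraries in 12 of the 38 genes. No other library did so in more than 3. Over all genes Tau P301S replicate 2 was highest in 10.6%, below WT replicates 3 and 4 (14.1% each).

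Most members had very low scores. At 6 months 29 of the 38 (76.3%) had a mean under 0.02, against 38.6% of all genes, and 16 (42.1%) had a mean under 0.005, against 11.8% of all genes. The 12 libraries spanned at most 1 step of 0.001 in 14 members (36.8%, against 7.37% of all genes). For these genes a score written 1 step higher may stand for a difference close to 0 or close to 2 steps. At 12 months 34 members (89.5%, against 57.1% of all genes) had a mean under 0.02, and the delta receptor gene Grid1 was listed at 0 in all 10 libraries.

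The order of the scores followed the size of the genes. By GENCODE M21 the summed intron length of the members had a median of 186 kb, against 20.96 kb over 14823 genes with introns. Across the 38 members, intron length and 6-month mean score had a Spearman correlation of −0.85, against −0.62 across all genes; genes are not independent replicates, and gene length is shared by paralogs. The 8 members with under 50 kb of introns had a median score of 0.0566, the 11 with 50 to 200 kb 0.00875 and the 19 with over 200 kb 0.00325. The highest means were in Grin2d (0.1205, 39.8 kb), Grm2 (0.0886, 8.09 kb), Grin2c (0.0821, 13.0 kb), Homer3 (0.0658, 8.09 kb) and Shank1 (0.0474, 39.8 kb). The lowest were in Grid1 (0.000667, 757 kb), Dlg2 (0.001, 1956 kb), Grm8 (0.00108, 850 kb) and Dlgap1 (0.00167, 834 kb). Dlg4, which encodes PSD-95, scored 0.00925 with 17.3 kb of introns, far below Grin2c and Grin1 (0.0442, 18.3 kb) of similar length. Grin2d, Grin3a, Shank1 and Homer3 overlap another protein-coding gene in that annotation. Whether the authors' counting used strand is not given, so signal from overlapping genes cannot be told apart from their own.

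**Figure D1:**
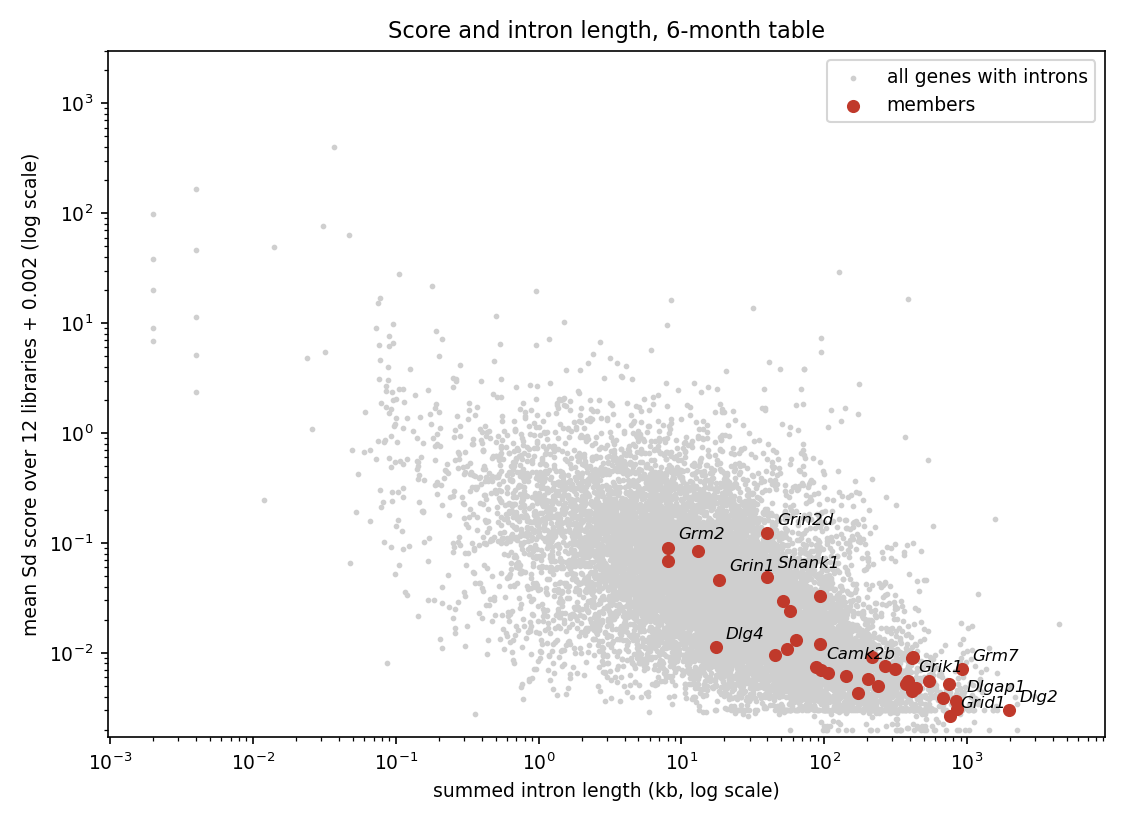
Summed intron length (kb, log scale) against the mean Sd score over the 12 libraries of 6 months plus 0.002 (log scale). Each red point is 1 of the 38 members and each grey point 1 of all genes with introns. Members with the longest introns, such as Dlg2 and Grid1, lie at the lowest scores, and Grin2d and Grm2 are the highest members.

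The N40K effect averaged over 5xFAD status compares the 6 carriers with the 6 non-carriers. Among receptors, the kainate receptor subunit gene Grik1, the delta receptor gene Grid1 and the metabotropic receptor genes Grm5 and Grm7 rose, and the NMDA receptor core subunit gene Grin1 fell. Among scaffolds Dlgap1, which encodes a protein that links PSD-95 to Shank, rose. In all 5 of 38 members rose (13.2%, against 10.8% of all genes tested) and 1 fell (2.63%, against 0.936% of all genes; limma on log2 of the score plus 0.002, with p adjusted by Benjamini-Hochberg over all 15705 genes and a threshold of 0.05). The share that rose was therefore near that of all genes. The 5 genes that rose had mean scores under 0.02 and differences of at most 2 steps of 0.001, and their summed introns ran from 388 to 916 kb. Of the 19 members with over 200 kb of introns 5 rose (26.3%), against 17.4% of all genes of that size.

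The change was above 0 in 31 of the 38 members (81.6%, against 72.0% of all genes), below 0 in 4 and exactly 0 in 3. Their median change was 0.15 on the log2 scale, against 0.09 over all genes. With the scores of every library centred on the library's median, which moved the median of all genes to −0.04, 19 members lay above 0 and 19 below. Under that scaling 12 members changed sign, among them Dlg1, Dlgap2, Homer1 and Shank3, so the directions of members that did not pass depend on the scaling. N40K replicate 1 had the highest score of its group in 24 of the 38 members, as did dTg replicate 3 in 13 and dTg replicate 2 in 10. Among non-carriers, 5xFAD replicate 2 did so in 14 and WT replicate 1 in 8. The part of the higher medians of N40K replicate 1 and dTg replicate 2 in the changes is shown by the values without them, where these are given. That part was not tested otherwise.

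**Figure D2:**
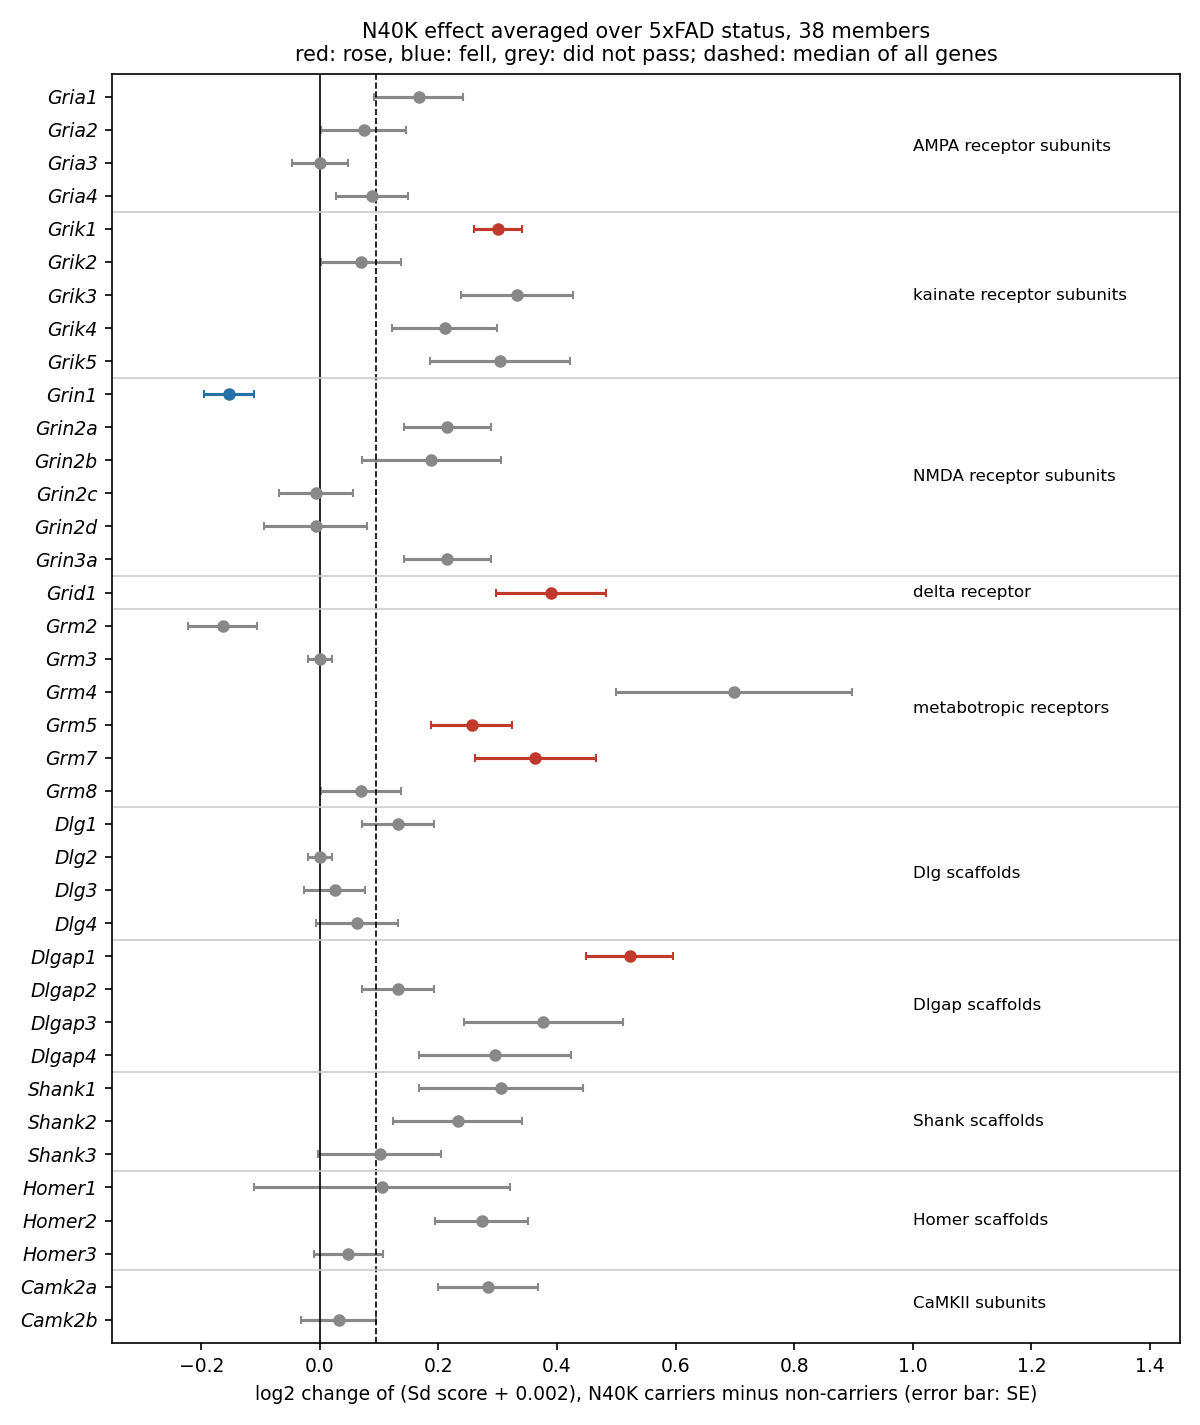
Log2 change of the Sd score plus 0.002 in N40K carriers minus non-carriers for the 38 members by role, with the standard error (6 libraries each). Red genes rose, the blue gene fell and grey genes did not pass; the dashed line is the median of all genes at 0.09. Dlgap1 and Grik1 have the smallest errors relative to their change, and Grm4 the largest change without passing.

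AMPA receptors carry the fast excitatory current. Gria1 scored 0.005, 0.005 and 0.006 in N40K, 0.005, 0.007 and 0.005 in dTg, 0.005 in all 5xFAD and 0.004, 0.004 and 0.005 in WT libraries. The groups overlapped, and the change of 0.17 (SE 0.075) did not pass (limma adjusted p = 0.178). Gria2, which encodes the subunit that limits calcium entry, Gria3 and Gria4 lay between 0.003 and 0.006 in all 12 libraries, with changes from 0 to 0.09. None of the 4 passed.

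Kainate receptors modulate both transmitter release and postsynaptic excitability. Grik1 (ENSMUSG00000022935) scored 0.004 in all N40K libraries and 0.004, 0.005 and 0.004 in dTg libraries, against 0.003 in all 5xFAD and all WT libraries. Carriers and non-carriers did not overlap, which held for 2 of the 38 members in this direction (5.26%, against 5.11% of all genes) and for none in the other (against 0.395% of all genes). The change was 0.30 (SE 0.040, limma adjusted p = 0.00659), a mean of 0.00417 ± 0.000408 in carriers against 0.003 in every non-carrier (SD, n = 6). Grik1 passed without each single library (adjusted p up to 0.0237) but not after centring (0.16, adjusted p = 0.0735).

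The other kainate genes had higher means in carriers without passing. Grik3 averaged 0.00833 ± 0.00151 in carriers and 0.00617 ± 0.000753 in non-carriers (SD, n = 6 each; limma adjusted p = 0.0524). Grik5, a high-affinity subunit, scored 0.032, 0.019 and 0.020 in N40K and 0.022, 0.026 and 0.028 in dTg libraries, against 0.019, 0.020 and 0.018 in 5xFAD and 0.020, 0.018 and 0.020 in WT libraries (adjusted p = 0.123). Within the N40K group, replicate 1, the library with the highest median over all genes, stood above the other two. Grik4 had a change of 0.21 (adjusted p = 0.1502) and Grik2 one of 0.069 (adjusted p = 0.542). Grik2 stood at 0.002 in every library except a single WT library at 0.001, and its change after centring was −0.066.

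NMDA receptors couple transmission to calcium entry and plasticity, and every functional receptor contains the Grin1 product. Grin1 (ENSMUSG00000026959) scored 0.043, 0.038 and 0.039 in N40K and 0.042, 0.042 and 0.047 in dTg libraries, against 0.047, 0.049 and 0.046 in 5xFAD and 0.045, 0.046 and 0.047 in WT libraries. Each of the 6 carriers except dTg replicate 3 lay below all 6 non-carriers. The means were 0.0418 ± 0.00319 in carriers and 0.0467 ± 0.00137 in non-carriers (SD, n = 6 each), a change of −0.15 (SE 0.042, limma adjusted p = 0.0464). Grin1 is the one member that passed with a score far above the rounding step. The call held without N40K replicate 1 and without dTg replicate 3, and was lost without each of the other 10 libraries, at adjusted p up to 0.104 (without dTg replicate 2). After centring, the change was −0.29 (adjusted p = 0.0113), and among genes with a mean of at least 0.02 alone its adjusted p was 0.0916. The call was also lost with a variance trend (adjusted p = 0.0635), under which no member fell, and without N40K replicate 1 and dTg replicate 2 together (adjusted p = 0.0558).

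Other NMDA subunit genes did not pass. Grin2a and Grin2b, the main partners of Grin1 in the adult cortex, scored 0.002 to 0.003 and 0.002 to 0.005 in all libraries, with changes of 0.21 (adjusted p = 0.0893) and 0.19 (adjusted p = 0.321). Grin3a also lay between 0.002 and 0.003. Grin2c averaged 0.082 ± 0.008 in carriers and 0.0822 ± 0.00436 in non-carriers, and Grin2d 0.1205 ± 0.0164 in carriers and 0.1205 ± 0.00841 in non-carriers (SD, n = 6 each). For both of these higher-scoring genes the means differed by far less than 1 SD.

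Grid1 (ENSMUSG00000041078) encodes a delta receptor that binds presynaptic partners through cerebellins. It scored 0.001 in all N40K and all dTg libraries, 0.001, 0 and 0.001 in 5xFAD libraries, and was listed at 0 in all WT libraries. Only the 5xFAD group held both values, and only WT lacked the higher one. It passed (limma adjusted p = 0.0302) on a difference of 0.667 steps. No fold is given against libraries listed at 0. The call held without N40K replicate 2, without each of the 5xFAD libraries and without dTg replicate 1, and was lost without each of the other 7 libraries (adjusted p up to 0.0675, without dTg replicate 2). It was also lost after centring (0.25, adjusted p = 0.131) and without N40K replicate 1 and dTg replicate 2 together (adjusted p = 0.120). Without 5xFAD replicate 2, the 5xFAD library listed at 0, Grid1 also passed in 5xFAD minus WT. It then passed as well in the 5xFAD effect averaged over N40K status and in the interaction. Rounding then left Grid1 no spread within any group.

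Metabotropic receptors adjust excitability and release. Grm5 (ENSMUSG00000049583), a postsynaptic receptor that binds Homer proteins, scored 0.004 in all N40K and 0.004, 0.005 and 0.003 in dTg libraries, against 0.003 in all 5xFAD and WT libraries. Only dTg replicate 3 overlapped the non-carriers. The change was 0.26 (SE 0.068, limma adjusted p = 0.0426), kept without dTg replicate 2 and without dTg replicate 3 and lost without each of the other 10 libraries (adjusted p up to 0.0876, without WT replicate 2). It was also lost after centring (0.12, adjusted p = 0.305) and without N40K replicate 1 and dTg replicate 2 together (0.20, adjusted p = 0.0681). Grm7 (ENSMUSG00000056755), a presynaptic receptor, scored 0.008, 0.005 and 0.005 in N40K and 0.005, 0.007 and 0.006 in dTg libraries, against 0.004, 0.005 and 0.004 in 5xFAD and 0.004 in all WT libraries. Its change was 0.36 (SE 0.10, limma adjusted p = 0.0498). The call held without N40K replicate 2, without N40K replicate 3 and without dTg replicate 1, and was lost without each of the other 9 libraries (adjusted p up to 0.116, without dTg replicate 2). It was also lost after centring (0.23, adjusted p = 0.0770) and without N40K replicate 1 and dTg replicate 2 together (0.23, adjusted p = 0.0700).

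Grm4, another presynaptic receptor gene, had the largest change of any member without passing. It scored 0.061, 0.026 and 0.028 in N40K and 0.032, 0.042 and 0.044 in dTg libraries, against 0.020, 0.025 and 0.018 in 5xFAD and 0.023, 0.022 and 0.026 in WT libraries. N40K replicate 2 tied with the highest WT library, and the dTg libraries lay above all non-carriers. The change was 0.70 (SE 0.20, limma adjusted p = 0.0523). Without N40K replicate 1 and dTg replicate 2 it was 0.49 (adjusted p = 0.0665). With a single library left out, Grm4 passed without N40K replicate 1, without N40K replicate 2 and without dTg replicate 1. It did not pass without any other single library. Grm2, a presynaptic autoreceptor gene, went the other way, with 0.0835 ± 0.00653 in carriers and 0.0937 ± 0.0048 in non-carriers (SD, n = 6 each; −0.16, adjusted p = 0.0999), and passed after centring (−0.30, adjusted p = 0.0144). Grm3 stood at 0.003 in all 12 libraries, and Grm8 at 0.001 in all but N40K replicate 1 (0.002).

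**Figure D3:**
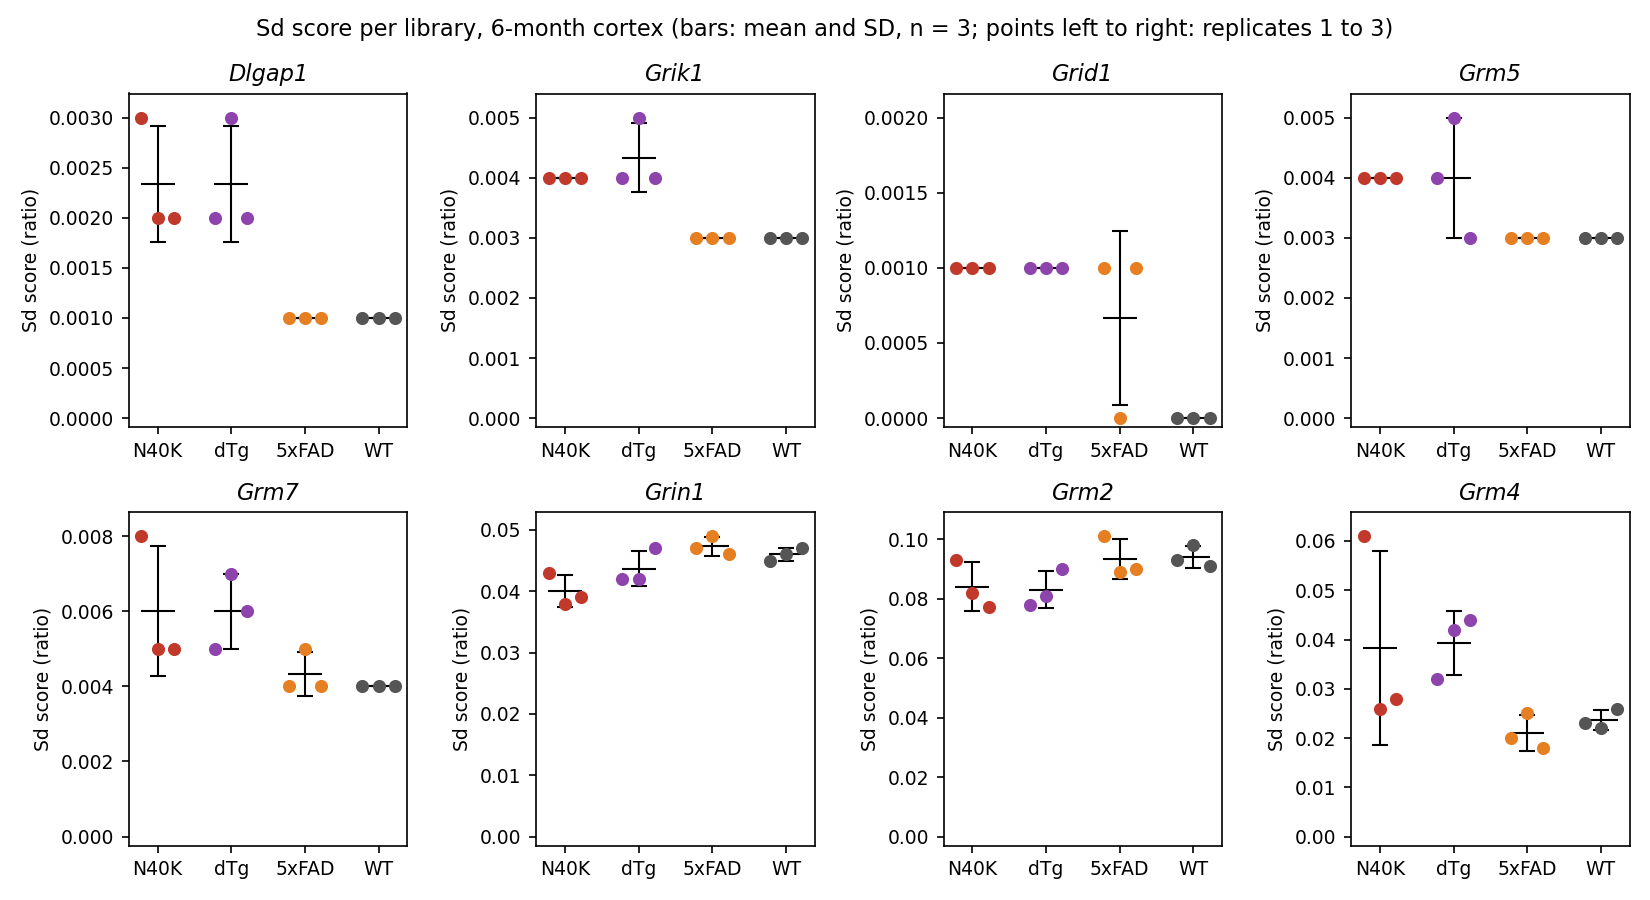
Sd score in each 6-month library for the 6 members that passed in the averaged N40K comparison and for Grm2 and Grm4, with group mean and SD (n = 3; linear axes that include 0). Dlgap1 and Grik1 are separated between carriers (N40K, dTg) and non-carriers (5xFAD, WT) by 1 or 2 rounding steps, while Grin1 is lower in 5 of the 6 carriers.

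The Dlg scaffolds anchor receptors at the synapse, and none of the 4 passed. Dlg4 scored 0.008 to 0.011 in carriers and 0.008 to 0.010 in non-carriers (change 0.063, limma adjusted p = 0.588). Dlg1 and Dlg3 had changes of 0.13 and 0.025, and Dlg2 stood at 0.001 in all libraries. After centring, all 4 Dlg genes lay below 0.

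Dlgap1 (ENSMUSG00000003279) scored 0.003, 0.002 and 0.002 in N40K and 0.002, 0.003 and 0.002 in dTg libraries, against 0.001 in every 5xFAD and WT library. No carrier overlapped a non-carrier. The change was 0.52 (SE 0.074, 1.44-fold, limma adjusted p = 0.00769). Dlgap1 passed without each single library (adjusted p up to 0.0257), after centring (0.39, adjusted p = 0.00548) and without N40K replicate 1 and dTg replicate 2 together (0.42, adjusted p = 4.12e-05). Those were also the libraries with its highest scores, 0.003 each. Without them every carrier scored 0.002 and every non-carrier 0.001. Rounding then left no spread within groups for that last p to measure. Dlgap3 averaged 0.013 ± 0.00329 in carriers and 0.00933 ± 0.000516 in non-carriers (SD, n = 6 each; adjusted p = 0.0994), with N40K replicate 1 at 0.018 and N40K replicate 2 at 0.009. Dlgap4 (0.30, adjusted p = 0.162) and Dlgap2 (0.13, adjusted p = 0.188) did not pass.

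Shank proteins form the deeper layer of the postsynaptic density, and Homer proteins tie them to Grm5. Shank1 scored 0.056, 0.037 and 0.047 in N40K and 0.050, 0.056 and 0.071 in dTg libraries, against 0.036, 0.051 and 0.037 in 5xFAD and 0.050, 0.038 and 0.040 in WT libraries. The groups overlapped (0.31, limma adjusted p = 0.178), as they did for Shank2 (0.23, adjusted p = 0.188) and Shank3 (0.10, adjusted p = 0.561). Homer1, an activity-regulated scaffold gene, had its highest score in WT replicate 1, at 0.018, against 0.006 to 0.013 in the other 11 libraries. Homer2 averaged 0.00567 ± 0.000816 in carriers and 0.00433 ± 0.000516 in non-carriers (adjusted p = 0.0528), and Homer3 had a change of 0.048 (adjusted p = 0.628).

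Camk2a, the main CaMKII subunit of excitatory neurons, scored 0.012, 0.008 and 0.009 in N40K and 0.009, 0.011 and 0.010 in dTg libraries, against 0.007, 0.008 and 0.008 in 5xFAD and 0.008, 0.007 and 0.008 in WT libraries. Only N40K replicate 2 lay within the non-carrier range (0.28, SE 0.084, limma adjusted p = 0.0595). Camk2b, its partner subunit, stayed at 0.005 or 0.006 in all 12 libraries (0.032, adjusted p = 0.786).

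Other glutamatergic genes were described by lists of 73 scored genes. These lists were chosen with earlier results of these data known, so their counts are a description and not a test. Of 14 auxiliary subunits of AMPA and kainate receptors 8 rose and none fell, with a median change of 0.37 (against 10.8% of all genes that rose and a median of 0.09). Cnih3, a cornichon that escorts AMPA receptors, scored 0.008, 0.005 and 0.005 in N40K and 0.006, 0.009 and 0.006 in dTg libraries, against 0.003, 0.003 and 0.002 in 5xFAD and 0.003, 0.002 and 0.003 in WT libraries. All carriers lay above all non-carriers (0.85, SE 0.13, 1.80-fold, limma adjusted p = 0.010). Gsg1l (0.55) and Shisa9 (0.45), also AMPA receptor partners, had the next largest rises of this list. Cnih3, Gsg1l and Shisa9 all scored highest in N40K replicate 1 and dTg replicate 2, the libraries with the highest medians over all genes. Gsg1l had 0.005 and 0.006 there, and Shisa9 0.005 in each. In the remaining carriers Cnih3 scored 0.005 or 0.006, still above every non-carrier. Of 13 trafficking genes Mpp2 rose (0.18), and of 13 transport and metabolism genes the glial transporter Slc1a2 rose (0.18). Of 22 postsynaptic signalling and adhesion genes Cnksr2 (0.35), Ppp3cb (0.22) and Ppp1r9a (0.18) rose. Of 11 metabotropic signalling genes none passed (limma, 1 at an unadjusted p under 0.05, against 4566 of all 15705 genes). As 10.8% of all genes rose, these counts are not read as a result about the lists. None of the 73 fell, against 0.936% of all genes. In dTg minus WT Cnih3 was the one gene of these lists that passed (0.94, SE 0.18, limma adjusted p = 0.0465), where 1.41% of all genes rose. Of these genes, Mpp2 had a mean of 0.0172 in carriers and 0.0148 in non-carriers, and the other genes named had means of at most 0.007. The alternative fits described for the members, such as centring and leaving out libraries, are not given for these genes. Whether their rises hold under such fits was not tested.

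The same genes were read in the pairs of single groups, which share libraries with the averaged comparison. By limma, 2967 of all 15705 genes had an unadjusted p under 0.05 in N40K minus WT, and 2834 in dTg minus 5xFAD. In N40K minus WT no member passed (limma; 6 at an unadjusted p under 0.05; 0.178% of all genes passed). Those 6 were Grik1 (adjusted p = 0.0778), Grid1 (0.0807), Dlgap1 (0.0751), Grm5 (0.188), Grm7 (0.188) and Grin1 (0.136). The N40K libraries lay wholly above the WT ones in 5 members (13.2%, against 16.8% of all genes) and wholly below in 1, Grin1 (against 2.64% of all genes). In dTg minus 5xFAD no member passed (limma; 12 at an unadjusted p under 0.05; 0.312% of all genes passed), with Grik1 closest (adjusted p = 0.0521), and 8 members lay wholly above (21.1%, against 14.4% of all genes) and none wholly below (against 2.36%).

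dTg minus WT, the sum of both transgene sets, had 2 members that rose (5.26%, against 1.41% of all genes) and none that fell (against 0.166% of all genes, or 1.57% in either direction; limma, 14 at an unadjusted p under 0.05). Over all 15705 genes, 3533 had an unadjusted p under 0.05 by limma. Grik1 rose by 0.34 (SE 0.057, limma adjusted p = 0.0328) and Dlgap1 by 0.52 (SE 0.10, adjusted p = 0.0475). Both differences amount to 1.33 steps of 0.001. Grik1 kept its call without N40K replicates 1 or 2, 5xFAD replicate 2 or any 1 dTg library, and lost it without each of the other 6 (adjusted p up to 0.110, without WT replicate 2). Dlgap1 kept it without N40K replicate 1 and lost it without each of the other 11 (adjusted p up to 0.148, without WT replicate 2). After centring Grik1 was lost (0.19, adjusted p = 0.188) and Dlgap1 passed (0.38, adjusted p = 0.0489). Fitted on the dTg and WT libraries alone, both were lost (adjusted p = 0.117 for Grik1 and 0.108 for Dlgap1). The dTg libraries lay wholly above the WT ones in 11 members (28.9%, against 18.4% of all genes), among them Grik3, Grin2a, Grm4, Grm7, Shank2 and Camk2a, and wholly below in 1, Grm2 (against 3.46% of all genes).

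Amyloid transgenes alone moved no member past the threshold. With 3 libraries per group and scores rounded to 0.001, this does not show that scores were equal to those of WT. Over all 15705 genes, limma gave an unadjusted p under 0.05 to 690 in 5xFAD minus WT and 807 in dTg minus N40K. The counts were 969 in the 5xFAD effect averaged over N40K status and 450 in the interaction. No member passed in 5xFAD minus WT (limma; 1 at an unadjusted p under 0.05, Grid1; 0.0191% of all genes passed, 0.0127% higher and 0.00637% lower), and the median change of the 38 was 0, as it was over all genes. No member had all 5xFAD libraries above (against 3.23% of all genes) or below (2.92%) the WT ones. None passed in dTg minus N40K (limma; none at an unadjusted p under 0.05; 0.0191% of all genes passed, 0.0127% higher and 0.00637% lower), and none had all dTg libraries above (against 2.92% of all genes) or below (2.6%) the N40K ones. None passed in the 5xFAD effect averaged over N40K status (limma; 1 at an unadjusted p under 0.05; 0.0446% of all genes passed), and none had all libraries apart (against 0.153% of all genes higher and 0.236% lower). That 1 was Gria3, with 0.006 in every 5xFAD and dTg library, against 0.00533 ± 0.000516 in N40K and WT libraries (SD, n = 6; limma adjusted p = 0.663). The interaction of both transgenes was tested directly and called no member (limma; none at an unadjusted p under 0.05, the smallest 0.065 for Grid1; 0.0191% of all genes passed, 0.00637% higher and 0.0127% lower). These tests do not show that the N40K effect is the same with and without amyloid transgenes: the interaction of Grik1, for example, was 0.074 with an SE of 0.080.

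Tau P301S minus WT asks whether a tau transgene moves the same genes at 12 months. By limma, 1258 of all 15192 genes had an unadjusted p under 0.05. No member passed (limma; 1 at an unadjusted p under 0.05; 0.00658% of all genes passed), and the median change was 0, against −0.02 over all genes. None had all Tau P301S libraries above (against 0.29% of all genes) or below (0.994%) the WT ones. Shank3 had the smallest p: 0.008, 0.009, 0.009, 0.009, 0.009 and 0.009 in Tau P301S libraries, against 0.010, 0.009, 0.010 and 0.010 in WT libraries (−0.12, SE 0.046, adjusted p = 0.561). The groups overlapped at 0.009. Grin1 had a lowest score of 0.018, a median of 0.020 and a highest of 0.020 in Tau P301S, against 0.021, 0.018, 0.021 and 0.021 in WT libraries (−0.05, adjusted p = 0.874). None of 70 other glutamatergic genes scored at 12 months passed (limma; 2 at an unadjusted p under 0.05). Dlg4 and Homer3 lay within 0.013 to 0.015 and 0.056 to 0.065 in all 10 libraries.

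Several members spread widely within the 12-month groups. Grik1 ranged from 0.008 to 0.028 in Tau P301S and from 0.005 to 0.018 in WT libraries. Grin2c had 0.0295 ± 0.00812 in Tau P301S (SD, n = 6) and 0.0395 ± 0.00904 in WT (SD, n = 4; −0.41, limma adjusted p = 0.646), and Grin2d 0.010 ± 0.00369 in Tau P301S and 0.0065 ± 0.003 in WT (0.50, adjusted p = 0.728). Both differences were near 1 SD of the libraries. Tau P301S replicate 2 stood above the rest of its group in several members. Its score was 0.007 in Grm5, against 0.002 in the other 5, 0.006 in Grin3a, against 0.001 to 0.003, and 0.028 in Shank1, against 0.012 to 0.020. Without it the change of Grm5 was 0.21 (adjusted p = 0.792), against 0.40 with it (adjusted p = 0.721).

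**Figure D4:**
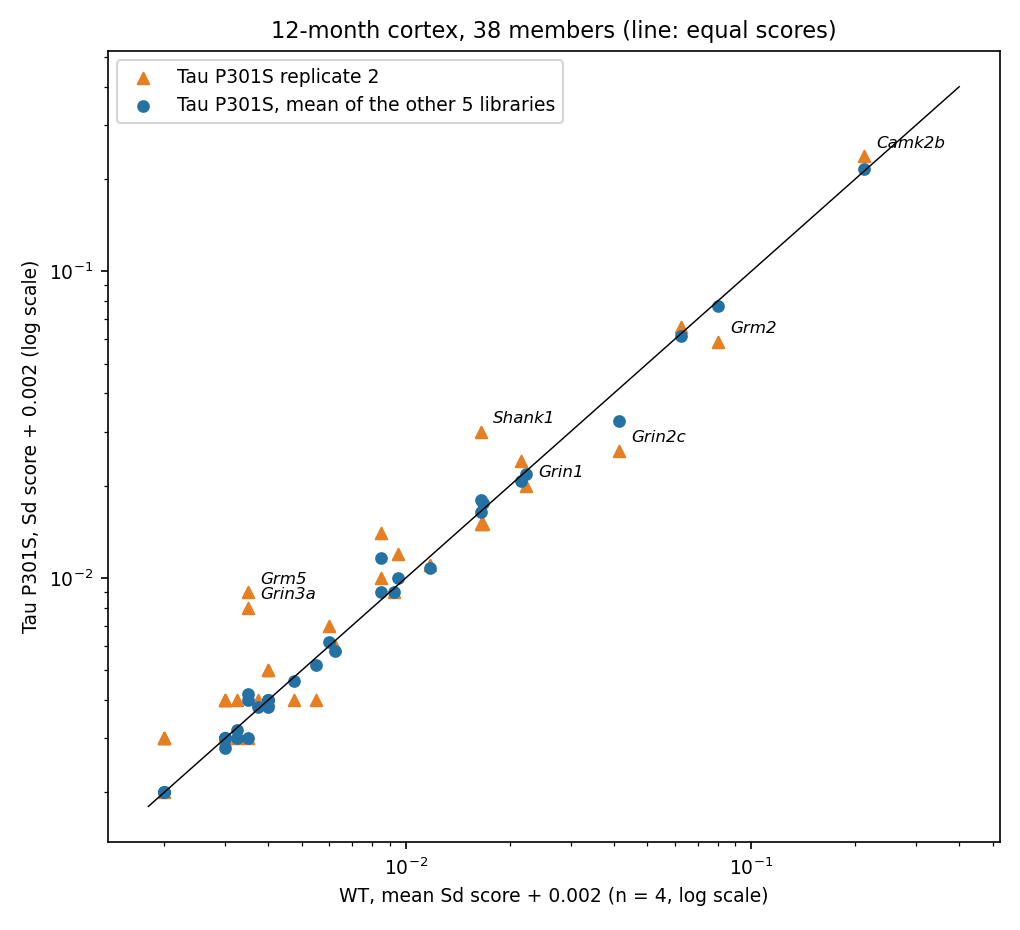
Sd score plus 0.002 of the 38 members at 12 months, Tau P301S (vertical) against the WT mean (horizontal, n = 4), both on log scales, with a line of equal scores. Blue points are the mean of 5 Tau P301S libraries and lie near the line; orange triangles are Tau P301S replicate 2, which lies above it in Grm5, Grin3a and Shank1.

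The same gene could have very different scores in the 2 tables, which were made separately and hold other animals, so no test was made between them. In WT mice 8 of the 38 members were higher in the 12-month table (21.1%, against 26.3% of 12952 genes shared by symbol). Camk2b averaged 0.2105 ± 0.047 in 12-month WT (SD, n = 4) and 0.00533 ± 0.000577 in 6-month WT mice (SD, n = 3), and its Tau P301S mean was 0.2175 ± 0.0372 (SD, n = 6). Shank2 (0.0195 at 12 months, 0.006 at 6 months) and Grik1 (0.0148 at 12 months, 0.003 at 6 months) were higher in the 12-month table as well. Grin2d ran the other way, with 0.0065 at 12 months and 0.12 at 6 months. Homer3 (0.0608 at 12 months, 0.0653 at 6 months) and Grm2 (0.0783 at 12 months, 0.094 at 6 months) were close. Across the 38 members the WT scores of the 2 tables had a Spearman correlation of 0.69, against 0.82 across all shared genes; genes are not independent replicates. Age, cross, and the processing of each table cannot be told apart here.

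**Figure D5:**
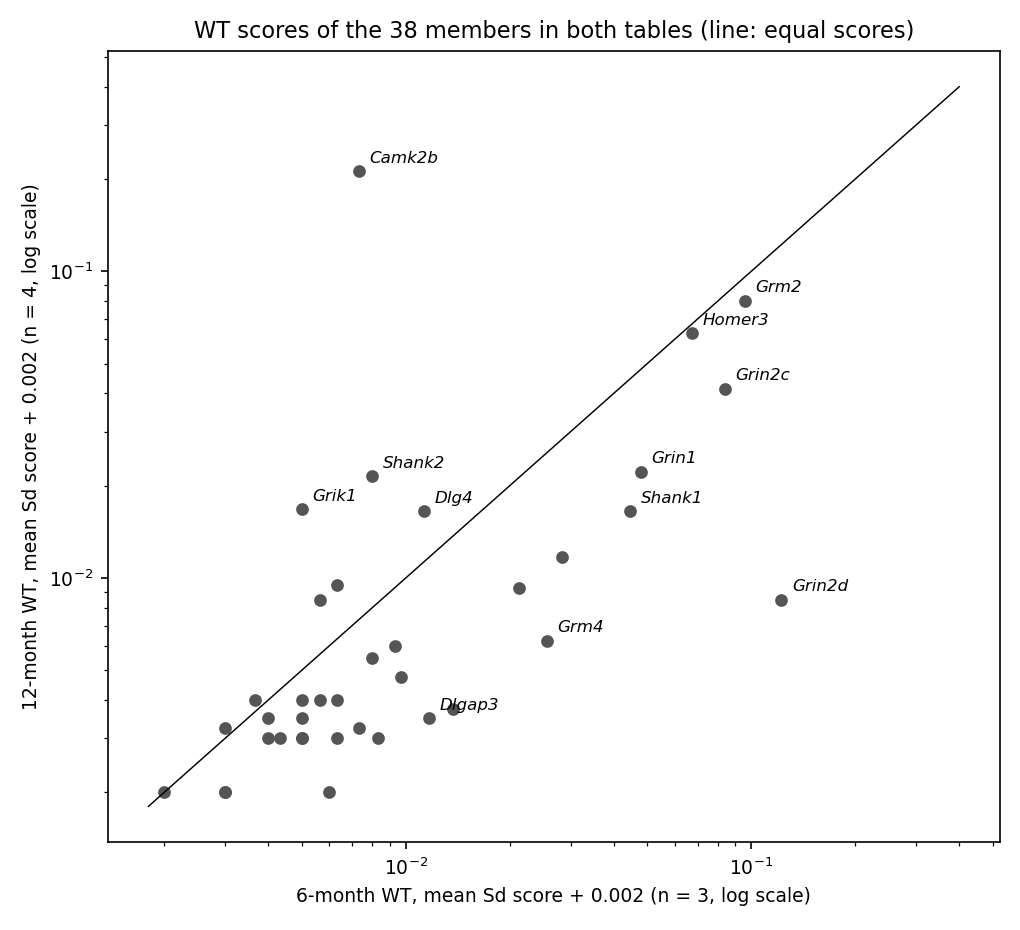
Mean WT Sd score plus 0.002 of the 38 members at 12 months (vertical, n = 4) against 6 months (horizontal, n = 3), both on log scales, with a line of equal scores. Most members lie below the line, while Camk2b, Shank2 and Grik1 lie far above it and Grin2d far below.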

How the data were processed

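RNA of mouse cortex was sequenced from stranded poly(A) libraries, per the labels. The authors deposited a table of Sd scores at each age, as a linear ratio with 3 decimals for every gene in every library. The submitters' processing notes name the mm9 build, bedtools 2.16.1, BWA, STAR and CASAVA, without roles. For the score's formula, the counter, the annotation and the depth, nothing is given in the sources used here.

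The values tested were log2 of the score plus 0.002, not recentred; the added constant draws folds of low scores towards 1. The model was limma 3.58.1 under R 4.3.3 (default eBayes, 1 term per group, all libraries of a table in 1 fit, 8 residual degrees of freedom), with Benjamini-Hochberg adjustment over all genes of a table and a two-sided threshold of 0.05. No value was missing. The fit was tested on simulated data, with a log2 change of 1 put into genes with a mean score of at least 0.02. Changes in lower scores, where the members that rose lie, were not simulated. Libraries are separate samples per the labels, and p-values measure the spread between them as far as the rounding shows it. Grik1, Grm5 and Dlgap1 had an SD of 0 in the 6 non-carriers, and Grid1 in the 6 carriers. The p-values of these genes rest in part on ties at the rounding step. Without N40K replicate 1 and dTg replicate 2, Grik1 and Dlgap1 had no spread within any group.

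Members, lists and the naming rule were chosen with earlier results of these data known. All 38 members could be named, with full statistics for those past the threshold. From the lists of other glutamatergic genes, up to 3 per list and comparison that passed were named by size of change. Alternatives were 2 other pseudocounts, a minimum mean score of 0.02, centring, a variance trend, a block for the replicate number, fits on the compared groups alone, leaving out each library, and leaving out N40K replicate 1 and dTg replicate 2 together. Results for single genes under these alternatives are given for members only. Same-numbered libraries showed no clear common deviation, and the main fit does not pair them. This does not show that the numbers carry no pairing. Intron lengths came from GENCODE M21 by Ensembl identifier (94.9% of genes matched). That annotation is on another build, so no coordinates are given.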

Additional observations from a re-analysis of the deposited data

Results flagged for a closer look

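In the 12-month groups, a library was compared with the others of its group in each of the 54 gene and group combinations that varied (the other 22 were constant), and 18 times the highest or lowest library stood apart. Chance gives about 1 in 20, but a gap test on rounded scores flags any single library that differs by 1 step, and 14 of the 18 had a range of 1 step only. Tau P301S replicate 2 accounted for 7, as the highest of 6 libraries: Grm5 at 0.007, Gria2 at 0.003, Grin2a at 0.002, Grm3 at 0.002, Grm7 at 0.001, Grm8 at 0.001 and Dlg2 at 0.001. Tau P301S replicate 1 was the lowest for Grm4 at 0.003, Shank3 at 0.008 and Homer1 at 0.001. Among the 4 WT libraries, replicate 2 was the lowest for Grik1 at 0.005, Grin1 at 0.018, Grm2 at 0.065, Shank3 at 0.009 and Camk2a at 0.002, and the highest for Gria3 at 0.002. WT replicate 1 was the lowest for Homer1 at 0.001, and WT replicate 4 the highest for Dlgap1 at 0.002.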

How the results depend on the processing

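In the averaged N40K comparison, the count of members that passed, 6 as fitted, was 3 with a pseudocount of 0.01, 3 after centring, 0 of the 9 members with a mean score of at least 0.02, 2 with the replicate number as a block and 2 without N40K replicate 1 and dTg replicate 2; it ranged from 2 to 9 with 1 library left out. The share of all genes that passed moved as well, from 11.7% as fitted to 10.9% with a pseudocount of 0.01 and 7.9% after centring. It was 8.63% with the minimum mean score, 5.66% with the replicate block and 4.77% without N40K replicate 1 and dTg replicate 2. With 1 library left out, it ranged from 5.18% to 15%. With a variance trend the count of members was 6 (11.4% of all genes passed), but 5 of these were the same genes, with Homer2 in place of Grin1. In dTg minus WT, 2 as fitted, it was 0 with a pseudocount of 0.01, 0 with the minimum mean score, 1 (Dlgap1) after centring, 0 with the replicate block, 2 with only the 2 groups compared but neither of the same genes (Grid1 and Grin2a), and 0 to 3 with 1 library left out. The share of all genes there was 1.57% as fitted, then 1%, 0.508%, 1.04%, 0.197% and 0.993% in that order. With 1 library left out, the share ranged from 0.191% to 4.52%. In N40K minus WT, 0 members as fitted (0.178% of all genes), the count was 2 without N40K replicate 1 and dTg replicate 2 (1.62%). It was 3 with only the 2 groups compared (0.669%), and 0 to 2 with 1 library left out (0.115% to 3.34%). In dTg minus 5xFAD, 0 as fitted, it was 1 with a pseudocount of 0.001, 1 with a variance trend, 2 without N40K replicate 1 and dTg replicate 2, and 0 to 3 with 1 library left out. With 1 library left out, the count was 0 to 1 in 5xFAD minus WT, in the averaged 5xFAD comparison and in the interaction. The 1 was Grid1 in each, without 5xFAD replicate 2, where 0.07%, 0.0828% and 0.0446% of all genes passed in that order. The count was 0 in dTg minus N40K and 0 in Tau P301S minus WT. The cause of these moves was not tested, except that the minimum mean score leaves out every member that rose. Same-numbered libraries had correlations of −0.19 to 0.0833 at 6 months (18 pairs) and −0.28 to 0.20 at 12 months (4 pairs), and 1 of 12 and 1 of 8 libraries correlated best with their own number. No member that passed changed its direction under any of these alternatives. The rounding to 0.001 and the unknown depth limit all scores below about 0.02.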
